A study of Mus musculus with 6 samples.

Results

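The matrix metalloproteinases (MMPs), their tissue inhibitors (TIMPs), the ADAM sheddases and the ADAMTS and ADAMTSL proteins were followed in the epididymal white adipose tissue of mice whose adipocytes lack CNOT3, a subunit of the mRNA deadenylase complex CCR4-NOT. A gene was taken as a member when its symbol in the array annotation began with Mmp, Timp, Adam, Adamts or Adamtsl followed by a number, and when a probe set named that gene alone. This gave 70 of the 18193 genes on the array: 18 MMP, 4 TIMP, 28 ADAM, 15 ADAMTS and 5 ADAMTSL genes. Where several probe sets named a gene, the brightest over the 6 arrays stands for it.

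RNA came from 3 CNOT3KO mice and 3 wild type (WT) mice, all C57BL/6 and 8 weeks old, with 1 Affymetrix array per mouse. In CNOT3KO mice Cnot3 was deleted by a Cre recombinase under the Adiponectin promoter, so the other cells of the fat pad keep the gene. For the WT mice, carriage of a floxed allele or of Cre is not given in the sources used here. Sex is likewise unstated, though an epididymal fat pad is a tissue of males. The question was how loss of CNOT3 from adipocytes alters the mRNAs of the intact fat pad.

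Signals are the authors' linear MAS5 values, and differences are given as log2(CNOT3KO) minus log2(WT) after adding an offset of 22.5 to every signal. Cnot3 read 194, 229 and 179 in CNOT3KO and 305, 293 and 305 in WT (log2 -0.54, SE 0.14, limma adjusted p = 0.0131); whether its probe set lies in the deleted stretch was not analysed here. The median signal of the 6 arrays lay between 82.1 and 92.9. Of 7 measured adipocyte markers 2 were lower in CNOT3KO, Lep at 42.0% and Cidec at 57.8% of WT, and 0 were higher. Of all genes bright enough to be tested, 16.9% were lower and 23.2% higher. The summed signal of the 7 was 91528 to 111190.0 in CNOT3KO and 107000.0 to 132778 in WT. Adipoq (log2 -0.08) and Fabp4 (-0.13), which did not pass, made up most of that sum on every array. In RNA from a whole tissue, a change in the number of cells of a type cannot be told apart from a change in RNA per cell, and this holds for every gene below.

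MMPs are zinc proteases that cut collagens and other matrix proteins and are held inactive by a propeptide. TIMPs block them by binding the active site. ADAMs sit in the membrane and shed the outer parts of other membrane proteins, whereas ADAMTS enzymes are secreted and cut proteoglycans and procollagens, and ADAMTSL proteins have no protease domain. In fat, these proteins remodel the matrix around growing or dying adipocytes and come from adipocytes, fibroblasts, vessel cells and macrophages.

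Of the 70 genes 41 were bright enough to be tested, their mean signal lying at or above 51.6, the 40th percentile of all probe sets. In CNOT3KO 13 of the 41 were higher and 8 lower at an adjusted p under 0.05, which is 51.2% of them, against 40.1% of all 12769 tested genes (23.2% higher and 16.9% lower). After centring every array on its tested-gene median, 12 members were higher and 9 lower, against 18.2% and 21.9% of all genes. The median log2 difference of the 41 members was 0.06 and that of all tested genes 0.02. The groups did not overlap in 24 members, against 51.7% of all tested genes; in 15 of them CNOT3KO was higher (29.0% of all genes) and in 9 lower (22.7%). Mmp13 and Mmp7 passed the filter through CNOT3KO alone, and Mmp9 and Mmp17 through WT alone, their mean in the other group lying below it, so the counts over tested members are no count over all 70. The dimmest tested gene was Mmp13 (mean signal 51.8) and the brightest untested one Adam11 (50.02).

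**Figure D1:**
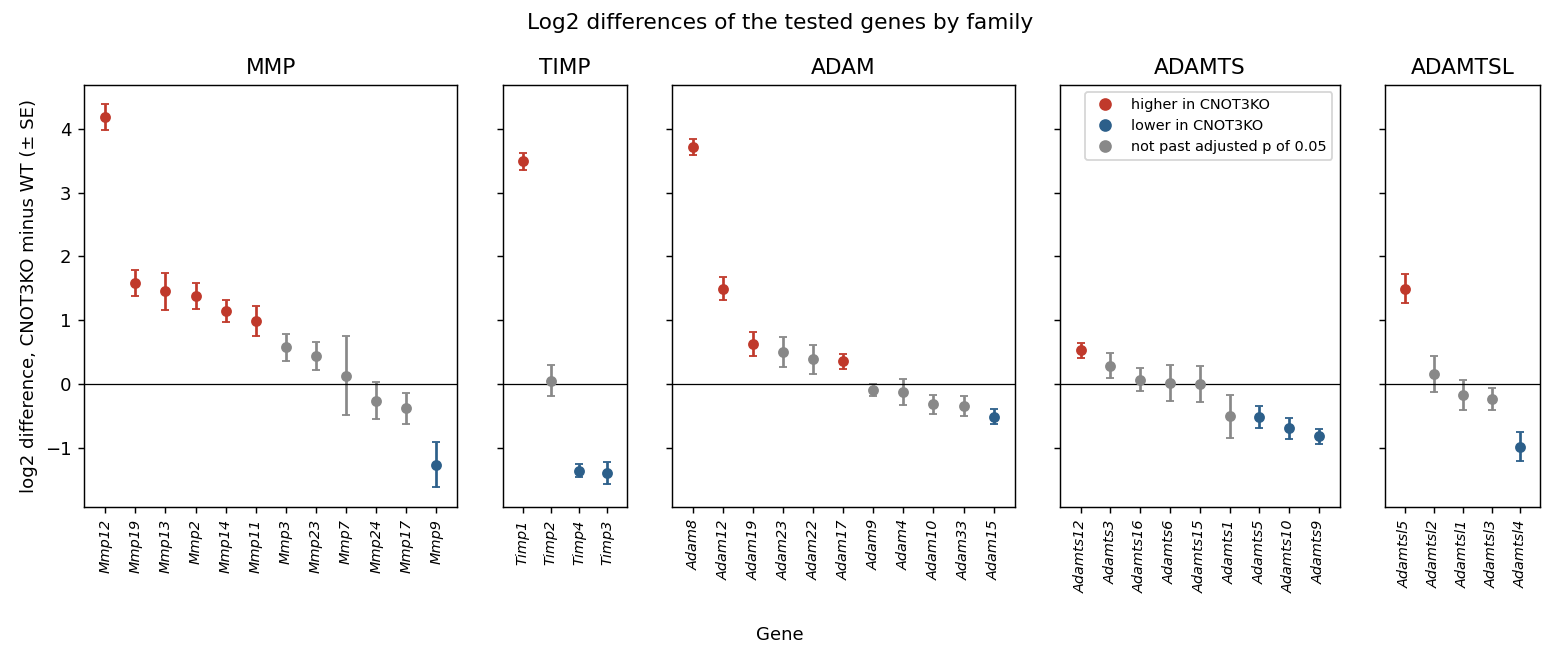
Log2 difference (CNOT3KO minus WT, vertical axis) of each tested gene, with bars of 1 SE, in a panel per family; red marks genes higher and blue genes lower in CNOT3KO at an adjusted p under 0.05. Mmp12 (4.19), Adam8 (3.72) and Timp1 (3.49) stand above all other genes shown, and Timp3 (-1.40) and Timp4 (-1.36) are the lowest.

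Among the MMPs 6 of 12 tested genes rose and 1, Mmp9, fell, which is 58.3% of them, against 40.1% of all tested genes. These 12 include Mmp13 and Mmp7, which passed the filter through CNOT3KO alone, and Mmp9 and Mmp17, which passed it through WT alone. The share therefore rests in part on genes let in by the group where they are high. Mmp12, the macrophage elastase, read 2938, 4691 and 3474 in CNOT3KO, against 173, 139 and 232 in WT. All 3 CNOT3KO mice lay far above the WT mice, with a log2 difference of 4.19 (SE 0.20, adjusted p = 3.52e-06). Mmp13, a collagenase that cuts fibrillar collagen, read 103, 109 and 50.1 in CNOT3KO, against 21.5, 11.8 and 15.9 in WT. The WT values are near the level where the array gives little order, so its log2 difference of 1.45 (SE 0.29, adjusted p = 0.00356) was 2.30 with an offset of 1 and 0.73 with an offset at the median of all values. Mmp19, a secreted MMP with a broad choice of basement membrane substrates, read 499, 389 and 617 in CNOT3KO, against 141, 122 and 195 in WT (log2 1.58, SE 0.21, adjusted p = 0.000349), and its other probe set gave 1.34.

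Higher as well were Mmp2 and Mmp14, which fibroblasts are known to make. Mmp2, the gelatinase A, read 2040.4, 2773 and 1473 in CNOT3KO, against 675, 741 and 887 in WT (log2 1.38, SE 0.21, adjusted p = 0.00073). Mmp14, the membrane-bound collagenase that activates the precursor of MMP2 at the cell surface, read 1672, 2005 and 1288 in CNOT3KO, against 627, 736 and 827 in WT (log2 1.14, SE 0.17, adjusted p = 0.000697). In both genes CNOT3KO mouse 2 was the highest and mouse 3 the lowest of its group, and no CNOT3KO mouse reached down to a WT mouse. The other tested probe sets of both were called higher too. Mmp11, known as stromelysin-3, averaged 375 ± 39.7 in CNOT3KO and 187 ± 78.7 in WT (SD, n = 3 each; log2 0.98, adjusted p = 0.00832).

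Mmp9, the gelatinase B of neutrophils and macrophages, went the other way. It read 46.1, 77 and 19.9 in CNOT3KO, against 222, 115 and 98.4 in WT (log2 -1.27, SE 0.36, adjusted p = 0.018). The call was lost without WT mouse 1 (log2 -0.96) or without CNOT3KO mouse 3 (-0.95), and the difference ran from -1.69 to -0.76 with the offset. The dimmer second probe set of Mmp9 averaged 19.1 ± 9.59 in CNOT3KO and 138 ± 29.1 in WT (SD, n = 3 each; log2 -1.95). Of 5 measured neutrophil markers 3 were tested and 0 passed, with a summed signal of 498 to 518 in CNOT3KO and 474 to 721 in WT; their part in the fall of Mmp9 was not tested.

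Of the 5 tested MMPs that did not pass, Mmp3, known as stromelysin-1, read 112, 113 and 152 in CNOT3KO, against 88.4, 58.5 and 85.2 in WT (log2 0.57, adjusted p = 0.0535). Its groups did not overlap, and it passed under 5 of 17 alternative settings. Mmp23 read 0.44 by its brightest probe set (adjusted p = 0.147) and 0.58 by the other, which passed when fitted singly. Mmp24, a membrane-type MMP, read -0.26. The difference of Mmp7 (0.13, SE 0.62) had a wide error, and Mmp17 read -0.38 (SE 0.24).

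Mmp13 and Mmp12 are neighbours at 1 end of a cluster of MMP genes on chromosome 9. In RefSeq's gene order (GRCm38.p6) they are followed by Mmp1b, Mmp3, Mmp1a, Mmp10, Mmp8, Mmp27, Mmp20 and Mmp7; Mmp27 was not analysed here. Of the 9 measured genes 4 were tested and 2, Mmp13 and Mmp12, rose, against 23.2% of all tested genes. So few genes give no firm share. Mmp13, just above the filter, and Mmp7 passed it through CNOT3KO alone. The 5 untested genes were too dim for a call either way: the mean signal over the 6 arrays was 16.3 for Mmp1b, 11.4 for Mmp1a, 6.70 for Mmp10, 39.6 for Mmp8 and 8.59 for Mmp20. In Mmp7 CNOT3KO mouse 1 read 187, against 9.55 and 25.2 in the other CNOT3KO mice and 17.4 to 72.7 in WT.

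**Figure D2:**
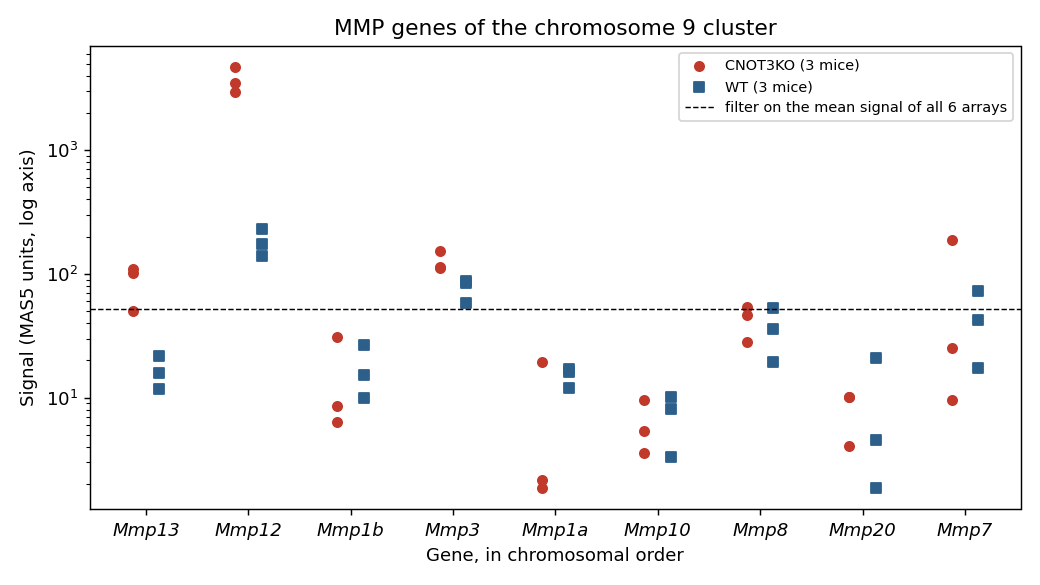
Signal (vertical log axis) of the 9 measured MMP genes of the chromosome 9 cluster in chromosomal order (horizontal axis, not to scale), with 1 point per mouse; the dashed line is the filter of 51.6, which was set against the mean of all 6 arrays. The 3 CNOT3KO mice (red circles) lie above the 3 WT mice (blue squares) in Mmp13, Mmp12 and Mmp3, and the groups mix in the other 6 genes.

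The start regions of these genes are shown because most of them, whether or not they rose, carry the same pair of motifs. Mmp13, which rose, holds the pair, and Mmp12, which also rose, holds it only at its second start. Mmp3 and Mmp7 hold the pair and did not pass. A part of the motifs in the rises was not tested. RefSeq's windows from 250 bases before to 50 after each start were searched on both strands for TGANTCA, the motif bound by AP-1, and for TATAAA, the TATA box. The motifs do not overlap each other. In the most upstream window of each gene, both were found in 7 of the 9 cluster genes (77.8%), against 1.67% of 27025 genes in the table. TGANTCA was in 7.92% and TATAAA in 14.2% of all genes, with or without the other. The most upstream window of Mmp12 held neither, while the window at its second start holds both, and with any window counted the cluster had 8 of 9 genes, against 1.84% of all genes. Mmp8 held TATAAA, on the opposite strand, and no TGANTCA. In the second Mmp12 window TATAAA lies just after the start as RefSeq places it. A match is a description of the letters and shows no binding. The stretches below run from 100 bases before the start to 10 after, 5′ to 3′ on the gene's strand, with both motifs in capitals.
Mmp13 (GRCm38.p6, chr9:7272414-7272523, plus strand): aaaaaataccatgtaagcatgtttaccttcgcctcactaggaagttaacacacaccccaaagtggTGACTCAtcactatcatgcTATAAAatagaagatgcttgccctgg
Mmp12 (GRCm38.p6, chr9:7344297-7344406, plus strand): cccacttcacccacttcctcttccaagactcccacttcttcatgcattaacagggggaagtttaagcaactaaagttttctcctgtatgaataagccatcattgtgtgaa
Mmp12 at its second start (GRCm38.p6, chr9:7347274-7347383, plus strand): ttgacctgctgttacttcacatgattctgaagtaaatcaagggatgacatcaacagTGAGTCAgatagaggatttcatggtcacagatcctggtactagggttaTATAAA
Mmp1b (GRCm38.p6, chr9:7388017-7388126, minus strand): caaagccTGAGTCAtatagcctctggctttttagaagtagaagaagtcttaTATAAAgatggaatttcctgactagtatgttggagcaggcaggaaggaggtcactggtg
Mmp3 (GRCm38.p6, chr9:7445722-7445831, plus strand): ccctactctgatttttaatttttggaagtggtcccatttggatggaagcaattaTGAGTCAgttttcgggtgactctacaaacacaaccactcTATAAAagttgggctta
Mmp1a (GRCm38.p6, chr9:7464041-7464150, plus strand): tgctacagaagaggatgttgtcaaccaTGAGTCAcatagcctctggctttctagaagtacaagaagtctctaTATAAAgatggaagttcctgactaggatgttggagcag
Mmp10 (GRCm38.p6, chr9:7502242-7502351, plus strand): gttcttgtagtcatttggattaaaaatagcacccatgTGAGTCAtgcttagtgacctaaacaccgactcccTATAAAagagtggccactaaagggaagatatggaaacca
Mmp8 (GRCm38.p6, chr9:7558329-7558438, plus strand): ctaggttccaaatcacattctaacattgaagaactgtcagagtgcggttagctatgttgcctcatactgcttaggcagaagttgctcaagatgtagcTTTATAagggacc
Mmp20 (GRCm38.p6, chr9:7628131-7628240, plus strand): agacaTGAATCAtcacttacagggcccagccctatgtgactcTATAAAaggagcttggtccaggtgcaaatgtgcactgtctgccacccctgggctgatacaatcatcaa
Mmp7 (GRCm38.p6, chr9:7691990-7692099, plus strand): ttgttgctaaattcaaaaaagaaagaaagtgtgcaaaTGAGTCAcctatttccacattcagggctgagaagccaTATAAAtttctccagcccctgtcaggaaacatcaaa

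Of the 41 members with a window in that table, 9 (21.95%) held TGANTCA in the most upstream one, and 7 of these 9 lie in the chromosome 9 cluster. It was in the most upstream window of 1 of 10 members that rose and had a window, Mmp13, and in 0 of 5 that fell. Mmp12 and Adam19, which also rose, held it in a later window. The windows of Adam8, Mmp14, Mmp11, Timp3 and Timp4 held neither motif. That of Timp3 was rich in CpG, with 24 CpG pairs and 67% G and C, whereas that of Timp4 held 2 CpG pairs and 53.3% G and C.

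The 4 TIMP genes split. Timp1, the inducible inhibitor of most MMPs, read 1433, 1428 and 1694 in CNOT3KO, against 129.6, 115 and 99 in WT. The groups lay far apart, with a log2 difference of 3.49 (SE 0.14, adjusted p = 1.61e-06). Timp4, an inhibitor abundant in adipose tissue and heart, read 6614, 5956 and 5816 in CNOT3KO, against 14229.6, 16549.7 and 16657 in WT (log2 -1.36, SE 0.11, adjusted p = 2.7e-05). Timp3, which binds to matrix and inhibits ADAM17 as well as MMPs, read 1986, 2332 and 1829 in CNOT3KO, against 4081, 5977 and 6569.8 in WT (log2 -1.40, SE 0.17, adjusted p = 0.000273). Neither Timp3 nor Timp4 had a CNOT3KO mouse within the WT range, and all 4 tested probe sets of Timp3 and both of Timp4 were called lower.

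Timp2, which inhibits MMPs and also carries the precursor of MMP2 to MMP14, depended on the probe set. Its brightest one read 6486, 8964 and 4408 in CNOT3KO, against 4745, 7047 and 6925 in WT (log2 0.05, SE 0.24, adjusted p = 0.891). Its direction turned with centring on the median of tested genes (-0.05), without WT mouse 1 (-0.14) and without CNOT3KO mouse 2 (-0.20). The other 4 tested probe sets gave 0.57, 0.41, 0.60 and 1.07, and those with 0.57 and 1.07 passed when fitted singly. CNOT3KO mouse 2 had the highest signal of its group and mouse 3 the lowest in the brightest probe set.

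**Figure D3:**
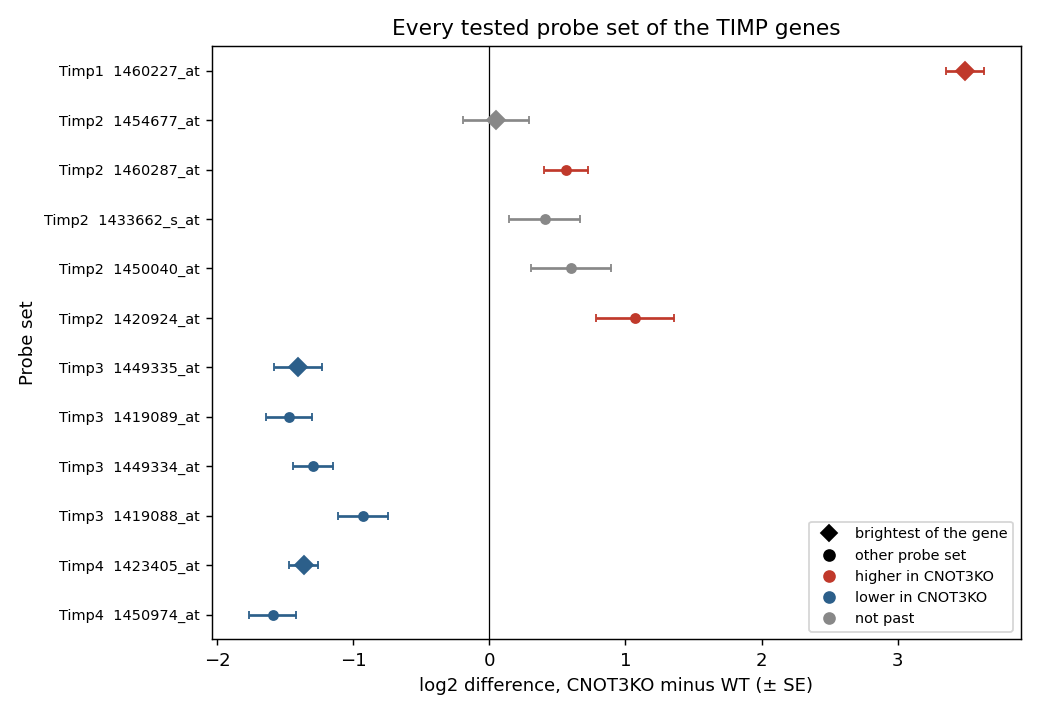
Log2 difference (CNOT3KO minus WT, horizontal axis, bars of 1 SE) of every tested probe set of the TIMP genes, each fitted singly; diamonds are the brightest probe set of a gene, red is higher, blue lower and grey not past an adjusted p of 0.05. The 6 probe sets of Timp3 and Timp4 lie between -1.59 and -0.93, the 5 of Timp2 between 0.05 and 1.07, and that of Timp1 at 3.49.

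The Timp1 start region is shown because its mRNA rose the most of the 4 inhibitors. It holds no TGANTCA and no TATAAA. It holds TGAGTAA, a variant AP-1 site known from the mouse Timp1 promoter, from base 27 to 33 after the start as RefSeq places it. This variant was in the most upstream window of 2.71% of all genes and of 1 of the 41 members, Timp1 itself. The window is given 5′ to 3′ with the variant in capitals.
Timp1 (GRCm38.p6, chrX:20869916-20870215, plus strand): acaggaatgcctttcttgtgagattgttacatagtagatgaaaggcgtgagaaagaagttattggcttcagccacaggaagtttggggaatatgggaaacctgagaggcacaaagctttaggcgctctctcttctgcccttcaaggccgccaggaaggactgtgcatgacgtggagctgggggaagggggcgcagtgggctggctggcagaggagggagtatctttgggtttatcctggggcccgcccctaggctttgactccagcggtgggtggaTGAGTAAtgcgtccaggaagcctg

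Of the 11 tested ADAM genes 4 rose and 1, Adam15, fell, a share of 45.5% that is near the 40.1% of all tested genes. Adam8, a sheddase of macrophages and other myeloid cells, read 2466, 3199 and 2459 in CNOT3KO, against 181, 177 and 192 in WT. Its log2 difference of 3.72 (SE 0.13, adjusted p = 8.99e-07) ranged from 3.35 to 3.87 over the 18 alternative settings run for it. Adam12, the meltrin alpha of mesenchymal cells and adipocyte precursors, read 909, 994 and 1109 in CNOT3KO, against 444, 261 and 341 in WT (log2 1.49, SE 0.18, adjusted p = 0.000215). Its second probe set gave 1.38 and was called higher as well. The groups of both genes were clearly apart.

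Smaller rises were seen in Adam19, the meltrin beta, and in Adam17, the sheddase of TNF and of EGF receptor ligands. Adam19 averaged 488 ± 105 in CNOT3KO and 307 ± 56.8 in WT (SD, n = 3 each; log2 0.63, adjusted p = 0.0225), and lost its call without WT mouse 3 (log2 0.48), without CNOT3KO mouse 1 (0.47) and with the mean of both probe sets (0.37). Adam17 averaged 925 ± 84 in CNOT3KO and 718 ± 38.5 in WT (SD, n = 3 each; log2 0.35, adjusted p = 0.0322). Its call was lost without WT mouse 2 (0.38) or 3 (0.31), without CNOT3KO mouse 1 (0.28), with centring on the median (0.26) and with the mean of its probe sets (0.30), and its other probe sets gave 0.27 and 0.28. Adam15, the metargidin of endothelial and other cells, read 2439, 2060.2 and 2077 in CNOT3KO, against 3561, 2919 and 2945 in WT (log2 -0.51, SE 0.12, adjusted p = 0.00761). All 4 of its probe sets were called lower.

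Adam10, the sheddase of Notch receptors, averaged 2638 ± 411 in CNOT3KO and 3303 ± 480.3 in WT (SD, n = 3 each; log2 -0.32, adjusted p = 0.105). Its other tested probe sets read 0.21 and 0.53, so its direction depended on the probe set. Adam9, a widely expressed sheddase, averaged 4164 ± 77.4 in CNOT3KO and 4446 ± 258 in WT (SD, n = 3 each; log2 -0.09, SE 0.09, adjusted p = 0.467). Adam22 and Adam23, which lack a working protease domain, read 0.38 and 0.50 and did not pass. Adam33 read -0.35 and did not pass, though its groups did not overlap by that probe set. Its second probe set read -0.75 and did not pass when fitted singly. Adam33 was called lower with the mean of its probe sets, with array weights and without probe sets prone to cross-hybridisation. Adam4 read -0.12. The 17 untested ADAM genes, most of which are known from sperm cells, had mean signals between 2.77 and 50.02. Of 8 measured testis and epididymis markers 7 were too dim to test. The summed signal of all 8 was 282 to 305 in CNOT3KO and 202 to 215 in WT. That sum includes Rnase10, the brightest of the 8 on every array. Rnase10 read 182, 150 and 192 in CNOT3KO, against 97.6, 92.6 and 99.4 in WT. The tested one, Rnase10, a gene of the epididymis, averaged 175 ± 22 in CNOT3KO and 96.5 ± 3.51 in WT (SD, n = 3 each; log2 0.72, adjusted p = 0.00758), and 3 of the 8 lay at or below the offset on all arrays.

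**Figure D4:**
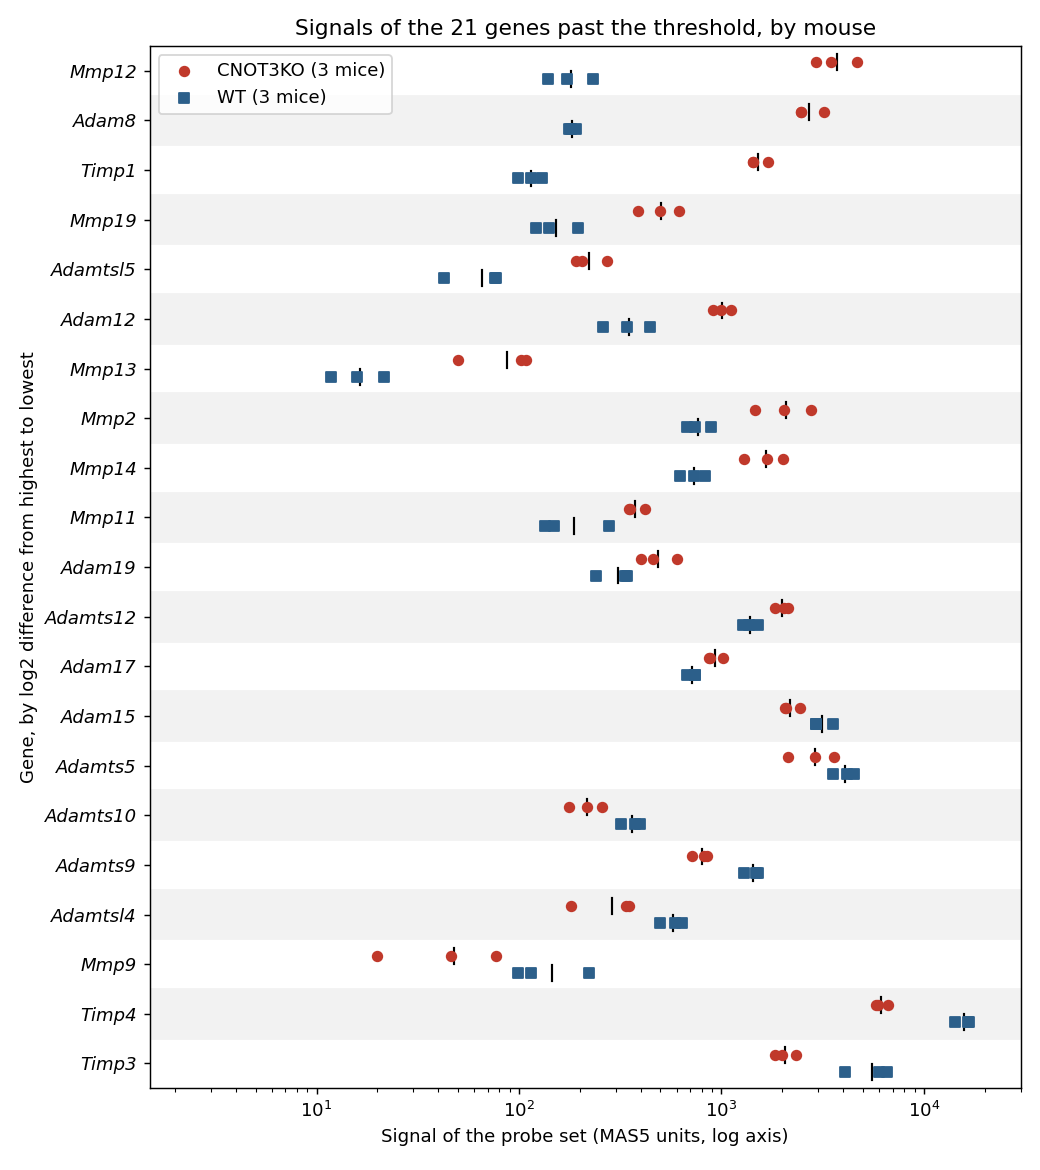
Signal (horizontal log axis) of the 21 genes past the threshold in each mouse; red circles are the 3 CNOT3KO mice, blue squares the 3 WT mice, and black ticks the group means. The groups do not overlap in any gene shown but Adamts5, where CNOT3KO mouse 1 (3609) lies above WT mouse 3 (3558).

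Of the 9 tested ADAMTS genes 3 fell and 1 rose, a share of 44.4% that is also near that of all tested genes. Adamts9, which cuts versican and aggrecan, read 824, 852 and 716 in CNOT3KO, against 1298, 1511 and 1474 in WT (log2 -0.82, SE 0.12, adjusted p = 0.000535). Its other tested probe sets read -0.74, which was called lower, and -0.15, which did not pass. Adamts10, which acts on fibrillin microfibrils, read 176, 258 and 216 in CNOT3KO, against 372, 397 and 320.5 in WT (log2 -0.70, SE 0.16, adjusted p = 0.00804). By the brightest probe set of Adamts9 and of Adamts10 the groups stayed apart. Adamts5, the main aggrecanase of mouse cartilage, averaged 2884 ± 737 in CNOT3KO and 4078 ± 485 in WT (SD, n = 3 each; log2 -0.52, adjusted p = 0.0416). It lost its call without WT mouse 1 (-0.50) or 2 (-0.44), without CNOT3KO mouse 2 (-0.54) or 3 (-0.32), with no filter (-0.52), without trend (-0.52), with array weights (-0.32) and with the mean of its probe sets (-0.40).

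Adamts12, which cuts COMP, was the riser: it read 2123, 2049 and 1832 in CNOT3KO, against 1360.4, 1272 and 1522 in WT (log2 0.52, SE 0.11, adjusted p = 0.00492). With the mean of its probe sets, the second of which was too dim to be tested singly, it read 0.28 and did not pass. Adamts1, which lies next to Adamts5 on chromosome 16 and also cuts versican, read 1382, 755 and 1234 in CNOT3KO, against 914, 1617 and 2566 in WT (log2 -0.51, SE 0.34, adjusted p = 0.257). The difference is close to that of Adamts5, but 1 WT mouse lay below 2 of the CNOT3KO mice. Adamts15 read -0.0049 with all mice and -0.40 to 0.20 with 1 mouse left out. Adamts16 read 0.06 by its brightest probe set, while its second one read 0.88 and passed when fitted singly. Adamts3, a procollagen protease, had a log2 difference of 0.29 with groups that did not overlap (adjusted p = 0.283), and Adamts6 read 0.01, with a sign that changed under 7 alternatives.

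Among the 5 ADAMTSL genes 1 rose and 1 fell, about the same share as among all tested genes. Adamtsl5 read 206, 272 and 191 in CNOT3KO, against 77.4, 76.1 and 42.5 in WT (log2 1.49, SE 0.22, adjusted p = 0.00077; 1.02 to 1.79 with the offset). Its second probe set averaged 115 ± 38.4 in CNOT3KO and 118 ± 19.9 in WT (SD, n = 3 each; log2 -0.06), so the rise rests on the first. Adamtsl4, a fibrillin-binding protein, read 337, 351 and 180.0 in CNOT3KO, against 589, 642 and 496 in WT (log2 -0.98, SE 0.23, adjusted p = 0.00734). CNOT3KO mouse 3 was the lowest of all and no mouse crossed into the other group. Adamtsl1 (-0.17), Adamtsl2 (0.15) and Adamtsl3 (-0.24) did not pass, and the groups of each overlapped.

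Mice of 1 group differed among themselves in the members. The median SD within groups was 0.28 on the log2 scale for the 41 members and 0.18 for all tested genes. CNOT3KO mouse 3 had the lowest signal of its group in 23 of the 41 members (56.1%), against 39.8% of all tested genes. CNOT3KO mouse 2 had the highest in 23 (56.1%), against 36.8% of all tested genes. The same order was seen in the summed macrophage markers (54441, 60511 and 42670.3 in CNOT3KO mice 1, 2 and 3) and fibroblast and progenitor markers (39033, 45673 and 36922). Smooth muscle and pericyte (9254, 10796 and 8886), mesothelial (2956, 3590 and 2415) and B cell markers (147, 171 and 105) had it too. Adipocyte markers were highest in mouse 3 (91528, 92925 and 111190). The sums of endothelial, mast cell, neutrophil, T and NK cell, and testis and epididymis markers also had another order. The part of cell numbers in this order was not tested. Of 21 members with more than 1 tested probe set, 8 had all of them called the same way, 5 had none called, 8 had some called and some not, and 0 were called in both directions.

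Markers of other cells moved beside the members, and their part in the results was not tested. Counts of markers are to be read against the 23.2% of all tested genes that were higher and the 16.9% that were lower. Of 10 macrophage markers 9 were higher in CNOT3KO and 0 lower, with a summed signal of 42670.3 to 60511 in CNOT3KO and 19934 to 25775 in WT. The 10 markers differed widely in size, from 1.13-fold for Cd14, which did not pass, and 1.51-fold for Csf1r to 19.7-fold for Gpnmb and 22.7-fold for Trem2, whose WT signals lie near the offset. Of 9 fibroblast and progenitor markers 3 were higher (Pdgfra, Fap and Lum) and 1 lower (Pi16), with sums of 36922 to 45673 in CNOT3KO and 31082 to 39048 in WT, ranges that overlapped. Dcn, which did not pass (log2 -0.06), made up most of that sum on every array, while Pdgfra, Fap and Lum did not overlap between the groups. All 9 endothelial markers were lower, with sums of 4124 to 4963 in CNOT3KO and 10658 to 11842 in WT, beside the falls of Timp3, Adam15 and Adamts9. Of 8 smooth muscle and pericyte markers 6 were lower and 1 higher, and of 7 mesothelial markers 4 were lower and 0 higher. Of 6 measured mast cell markers 4 were tested, with 3 higher and 1 lower. Of 6 tested T and NK cell markers 1 was higher and 0 lower, and of 3 tested B cell markers 0 were higher and 2 lower.

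Other genes of tissue proteolysis were counted from lists, each to be read against the 40.1% of all tested genes that passed. In plasminogen activation, the serine protease route that can activate MMPs, 2 of 5 tested genes rose and 0 fell. Serpinb2, an inhibitor of plasminogen activators, averaged 472 ± 198 in CNOT3KO and 20.4 ± 6.36 in WT (SD, n = 3 each; adjusted p = 5.22e-05). With 2 of 3 WT mice below the offset, its log2 difference of 3.44 is set by that offset and ran from 2.29 to 4.40 with it. Plau, the activator urokinase, rose 1.97-fold. Of 6 tested further inhibitors and inducers, Tfpi2, a Kunitz-type inhibitor, rose 3.23-fold and Reck, a membrane-anchored inhibitor of MMPs, fell to 69.7% of WT. Lrp1, the receptor that clears MMPs and TIMPs from the cell surface, read 0.32 (adjusted p = 0.0899). Of 13 tested cathepsins, the proteases of the lysosome, 8 rose and 0 fell, with Ctss at 3.74-fold, Ctsk at 3.02-fold and Ctsa at 2.08-fold.

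Genes of the families that ready the members for work were mixed. Of 6 tested genes of the proprotein convertase family, 2 fell and 0 rose. Some of this family, but not all, cut the propeptide from membrane-type MMPs, ADAMs and ADAMTS enzymes. Pcsk6 averaged 274 ± 35.6 in CNOT3KO and 1652 ± 195 in WT (SD, n = 3 each; log2 -2.50, adjusted p = 6.02e-06), and Mbtps1 fell to 78.8% of WT, while Furin read 0.12 and did not pass. Among 8 tested escorts of ADAM10 and ADAM17, Frmd8, which stabilises the iRhom partners of ADAM17, rose 1.86-fold and Tspan33 rose 1.96-fold. Tspan5 and Tspan17, tetraspanins that like Tspan33 escort ADAM10, fell to 62.9% and 71.3% of WT.

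Among the substrates, 9 of 20 tested collagens, laminins and other large matrix proteins rose and 0 fell, with Col1a1 at 2.48-fold, Col5a2 at 1.84-fold and Col6a2 at 1.68-fold. Of 11 tested proteoglycans and thrombospondins 4 rose and 3 fell: Ncan rose by 1.92 on the log2 scale (1.25 to 2.38 with the offset) and Lum 2.92-fold, while Thbs2 fell to 46.3% of WT. Vcan, whose product versican Adamts1, Adamts5 and Adamts9 cut, averaged 953 ± 143 in CNOT3KO and 475 ± 150.5 in WT (SD, n = 3 each; adjusted p = 0.00356). Of 26 tested membrane proteins that ADAMs or MMPs are known to shed, 6 rose and 5 fell. Trem2, which macrophages use to sense lipids, read 1616, 1254 and 1550.0 in CNOT3KO, against 24.2, 22.7 and 110.04 in WT. With 2 WT mice close to the offset, its log2 difference of 4.51 ran from 3.52 to 5.18 with the offset. Cd44, the receptor for hyaluronan, rose 3.92-fold, and Cdh5, the cadherin of endothelial cells, fell to 33.9% of WT. Tnf, the substrate for which ADAM17 is named, averaged 51.8 ± 13.9 in CNOT3KO and 41.9 ± 19.3 in WT (SD, n = 3 each) and was too dim to be tested.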

How the data were processed

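For each of 6 mice, 500 ng total RNA was made into biotinylated cRNA for 1 Affymetrix array, per the labels' protocols. The deposited signal intensities, 1 per probe set, are on a linear scale. The submitters' processing notes name MAS5 for them; its version, settings and scaling target are not stated in those notes. Means without the outer 2% of values at either end differed between arrays by at most 0.0711%, so the arrays had been scaled before deposit. The table gives no detection calls. Precision is limited by having 3 arrays in each group.

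Of 45037 probe sets 34945 named 1 gene, 932 several and 9160 none in the platform annotation; the Entrez numbers of all 70 members were found in RefSeq's gene table. Probe sets naming several genes were not used. A gene was left untested where its brightest probe set fell under the 40th percentile of mean signals (5424 of 18193 genes). limma 3.58.1 in R 4.3.3 was run on log2(signal + 22.5), where 22.5 is the 25th percentile over the whole table. It used lmFit and eBayes with trend, two-sided, with Benjamini-Hochberg adjusted p over all 12769 tested genes and a threshold of 0.05. The titles name separate mice, and the residual degrees of freedom are 4. Single probe sets were fitted over all 22861 tested ones, an alternative added after seeing the data. The script was tested on simulated data. Promoter windows come from RefSeq (GRCm38.p6). Tables and figures were made in Python 3.11.15 (pandas 2.3.3, matplotlib 3.10.9).

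The members, the gene lists and the alternatives were chosen with earlier results of these data known. Named were Cnot3, every member past the threshold, the 3 brightest members per family that were not, the members beside the filter, and up to 3 genes with the largest change in each pathway list, with Tnf and Lrp1. Other members, the markers named, Furin, Vcan and the promoter motifs were chosen after their values were seen. Groups of 3 are too small for a test of outliers.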

Additional observations from a re-analysis of the deposited data

How the results depend on the processing

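The count of members higher in CNOT3KO (13) and lower (8) stayed within 1.5 times under all 19 alternatives; with 1 mouse left out they ranged from 11 to 14 higher and from 6 to 9 lower. The median log2 difference of the tested members (0.06) was -0.034 with centring on the median of tested genes and 0.0066 to 0.31 with 1 mouse left out. Of 21 members past the threshold 16 kept their direction and call under every alternative rerun for single genes; the others were Adam17, Adam19, Adamts5, Adamts12 and Mmp9, whose values are given above. Of the 20 members not past the threshold, 5 kept their direction and side throughout, and those that changed sign did so as follows. With an offset of 1, Adamts6 read -0.0047 and Mmp7 -0.058. With centring, Timp2 read -0.048, Adamts16 -0.034 and Adamts6 -0.086; with array weights, Adamts16 read -0.10. Averaging a gene's probe sets gave 0.094 for Adam10, 0.14 for Adamtsl1 and -0.11 for Adamts6. With 1 mouse left out, Mmp24 ranged from -0.52 to 0.025, Mmp7 from -0.68 to 0.67, Adam4 from -0.31 to 0.0066, Adamts6 from -0.17 to 0.29, Timp2 from -0.20 to 0.31, Adamts15 from -0.40 to 0.20, Adamts16 from -0.0004 to 0.18, Adamtsl1 from -0.40 to 0.11 and Adamtsl2 from -0.10 to 0.40. Other probe sets fitted singly, an alternative chosen after seeing the data, gave -0.060 for Adamtsl5, 0.21 and 0.53 for Adam10, and 0.11 and 0.48 for Adamtsl1. The cause of these changes was not tested. With the mouse number as a replicate block 13 members were higher and 8 lower. Same-numbered mice correlated at 0.07, 0.11 and 0.04 in their deviations from the group means, over genes, and each mouse correlated best with its own number. Deviations within so small a group are tied to each other, so these values cannot tell whether mice were paired. The labels state no pairing. Signals near the offset have little order, which limits the size of the differences of Mmp13, Mmp9, Adamtsl5, Serpinb2, Trem2 and Ncan, and any statement on the 29 untested members.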
